A study of Homo sapiens with 32 samples.

Results

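The promoters of the cytosolic ribosomal protein genes were examined in ATAC-seq libraries of a human cell line. The cells were treated with DMSO or with dTAGV-1, a compound used to degrade the tagged transcription factor ZNF143. ATAC-seq inserts sequencing adapters into open chromatin with the Tn5 transposase, so the count in a window measures its accessibility. The members were the counted windows, all of the same width, whose centre lay within 500 bp of an annotated transcript start (GENCODE release 44, hg38) of a protein-coding gene with an RPL or RPS symbol, RPSA, RPLP0, RPLP1 or RPLP2, without the RPS6K kinases. Of the 84 genes that match, 80 had such a window, and they held 148 of the 212358 windows in the table. A gene had 1 window in 33 cases, 2 windows in 33 cases and 3 or more in 14 cases, with 5 as the most. Of the 148 windows, 84 overlapped another member window and so share counts with it, and 39 also lay at the start of another protein-coding gene, on the opposite strand in 38 of these. The agreed reference start of a gene (MANE Select) lay within 500 bp of 119 windows, and the other 29 lay only at other annotated starts.

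All libraries come from the clone HEK_CloneZD29 of HEK293T, a human embryonic kidney line, so they are cultures of 1 clone. ZNF143 carries an inducible degron tag in this clone per the labels of replicates 1 to 8, and the labels of replicates 9 to 16 give the same clone name. The counted libraries are 8 controls treated with DMSO and 8 treated for 30 minutes with 50 nM dTAGV-1, a compound that bridges the tag to a ubiquitin ligase, all numbered 9 to 16. Replicates 1 to 8 of both groups enter only a list of 259926 peak summits with no value per library, and the amount of ZNF143 protein was not analysed here. The labels do not say that replicates are separate cultures, so the p-values measure the spread between libraries, which may be technical.

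Ribosomal proteins are needed in mostly equal amounts for each ribosome, and their genes are among the most strongly transcribed in growing cells. Their promoters are compact and mostly lack a TATA box. Transcription tends to begin inside a short run of pyrimidines, known as the TCT initiator, which also gives the mRNA the 5' terminal oligopyrimidine tract through which the mTOR pathway controls its translation. ZNF143 is a zinc finger activator that binds near transcription starts, at a long motif whose left part is read as ACTACA followed by CCCA and whose right part runs from that CCCA to ATGC.

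The libraries held between 2275856 and 13671039 counts. Replicates 11 and 12 of both groups stood apart: the tenth of windows with the highest mean level held 32.0% of the counts of control replicate 12, 39.1% of dTAGV-1 replicate 12, 41.9% of dTAGV-1 replicate 11 and 45.9% of control replicate 11, and 48.1% to 49.5% in the other 12 libraries. Of 9 genes that HEK293T is known to keep open, 8 had a window at a control mean of 3.01 to 5.14 log2 CPM (TMM-scaled log2 CPM with a prior count of 2). LHX1 stood at -2.05, the value of a window with no count. As for RPS18 below, that value is not read as a level, so LHX1 is called neither open nor closed. Of 8 genes of other cell types, PTPRC, CD3E, SPI1, ALB and INS had no window, CDH5 stood at 0.86, MYOD1 at 2.90 and GFAP at 3.55.

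Letters of the TCT initiator were found near the start of most of these genes. The search did not ask that transcription begin inside the match. CCTTT or TCTTT, searched on the gene's strand within 30 bp of the MANE start, was found at 62 of 84 ribosomal protein genes (73.8%) and at 9.39% of 18977 other protein-coding genes. TATAAA between 20 and 40 bp upstream was found at 5 of the 84 (5.95%) and at 3.96% of the others. RefSeq start sequences (GRCh38.p14) were matched for 67 of the 84 genes. Of 66 of these, 43 had CCTTT or TCTTT in the 30 bases around at least 1 RefSeq start. The following are those bases for 6 of the 43, 5' to 3' on the gene's strand. They are shown so that the shared letters can be seen, with the matched letters in capitals. They run from RPSA and RPS3, proteins of the small subunit, to RPLP2 of the stalk, and another RefSeq start of RPS27A has no match.
RPSA, chr3:39406705-39406734, plus strand: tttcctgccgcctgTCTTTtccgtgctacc
RPS3, chr11:75399503-75399532, plus strand: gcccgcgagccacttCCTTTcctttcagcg
RPS27A, chr2:55232673-55232702, plus strand: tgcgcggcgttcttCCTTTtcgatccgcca
RPL37A, chr2:216498829-216498858, plus strand: gcaccgcgtctcttCCTTTctgggctcgga
RPL27A, chr11:8682777-8682806, plus strand: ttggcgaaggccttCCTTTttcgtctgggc
RPLP2, chr11:809952-809981, plus strand: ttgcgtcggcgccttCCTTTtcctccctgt

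Within 100 bp of the window centre, on both strands, TCGCGAGA (known as the M8 element) was found in 17 of 148 member windows (11.5%) and in 0.909% of 32788 windows at other protein-coding starts. CCGGAAG, read by ETS factors, was found in 31 (20.9%) against 8.51%, and AAGATGGC, read by YY1, in 7 (4.73%) against 2.13%. GGGGCGGGG, the GC box of SP and KLF factors, went the other way, with 11 (7.43%) against 15.9%. The NRF1 element was found in 11 (7.43%) against 4.76%, CCAAT (NFY) in 36 (24.3%) against 21.5%, and CACGTG (E-box) in 9 (6.08%) against 5.53%. The right part of the ZNF143 motif was found in 7 member windows (4.73%) against 0.869%. The left part, ACTACANNNCCCA, was found in 8 (5.41%) against 1.56%, and both parts share the letters CCCA. That left part was added after the sequences of the changed windows had been seen. The median GC content was 58.6% in member windows and 64.3% in the windows of other protein-coding starts. A match is a description of letters and not evidence of binding.

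**Figure D1:**
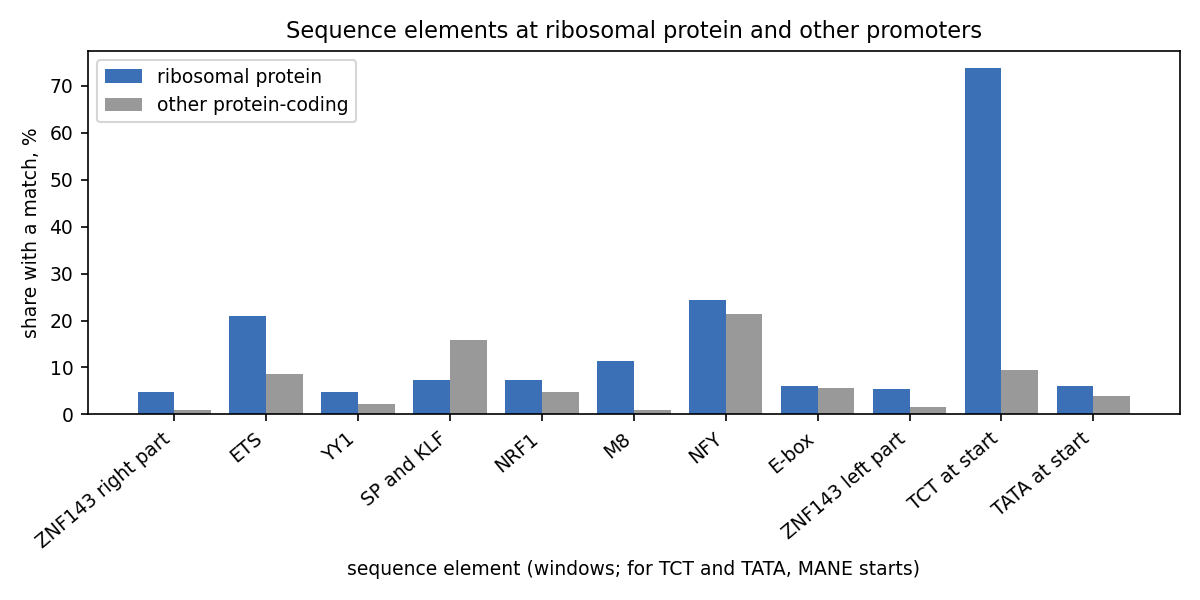
Share of ribosomal protein windows (148) and of other protein-coding promoter windows (32788) with each sequence element within 100 bp of the centre, in percent; for TCT and TATA the share of genes with the element at the MANE start (84 and 18977 genes). CCTTT or TCTTT (TCT) was found within 30 bp of the MANE start at 73.8% of ribosomal protein genes against 9.39%, and the M8 element in 11.5% of windows against 0.909%.

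The ZNF143-type sequences below belong to 8 of the 12 windows with either part of the motif, called or not. Each is given on the strand that matches, in hg38, with the letters of the matched part in capitals. RPL36 holds the left part at 2 places, as does RPL23A, whose called window is described with the results, RPS27A holds both parts joined in 1 run, and RPLP2 and RPS23 hold the right part alone.
RPL36, chr19:5680699-5680728, minus strand: gccgtgctgACTACATTTCCCAgacagcct
RPL36, chr19:5680749-5680778, minus strand: ccgggccgaACTACATTTCCCAggaggctc
RPS27A, chr2:55232346-55232375, plus strand: ggagaACTACAGTTCCCAGAATGCacttcc
RPS26, chr12:56041737-56041766, plus strand: ggcttcgcACTACAATTCCCAccaagcatc
RPL6, chr12:112409675-112409704, minus strand: cggggaaatACTACATTCCCCAtgatgccc
RPS3, chr11:75399415-75399444, plus strand: acgtaaaaACTACATTTCCCAtgagcaccc
RPL15, chr3:23917036-23917065, plus strand: atgccggaACTACATGTCCCAtgacgctct
RPLP2, chr11:809638-809667, minus strand: acctagcaccCCCAGCATGCcacgcggcgc
RPS23, chr5:82278601-82278630, plus strand: gactaccaatCCCAGAATGCgttttatggg

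Ribosomal protein promoters were among the more accessible windows of the table. A filter on low counts left 146 windows of 79 genes for testing, and their total over the 16 libraries ran from 177 to 9716 counts, with a median of 2104. Their median mean level was 3.98 log2 CPM, which lay at the 93.1 percentile of all tested windows and at the 71.0 percentile of the windows of other protein-coding starts, whose median was 3.20. Taking for each gene its strongest window, the median was 4.54. Of these 79 strongest windows, 67 were centred within 200 bp of a start.

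The genes spanned a wide range. The highest window belonged to RPL10, a large subunit protein that helps form the peptidyl transferase site, at a control mean of 6.09 ± 0.42 log2 CPM (SD, n = 8). It lay at an alternative start, at -8338 bp from the MANE start, and the RPL10 window at -138 bp from that start stood at 5.06 ± 0.34. RPL27A followed at 5.88 ± 0.46, also at another start, 6178 bp downstream of its MANE start, where its other window stood at 4.67 ± 0.37. RPLP0, which anchors the stalk that recruits translation factors, stood at 5.72 ± 0.20 at its own start. The ranges of the control libraries of these 3 genes overlapped. The genes were read in the same libraries, and their order within each library was not tested. The lowest were RPS9 at 1.28 ± 0.40, the testis-type retrocopy RPL10L at 1.59 ± 0.35 and RPL19 at 2.66 ± 0.48. The control libraries of RPS9 (0.59 to 1.64) and RPL10L (1.25 to 2.14) overlapped each other. All windows have the same length, so levels are compared between genes on a like scale, although the ability to map reads to near-identical copies was not tested.

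**Figure D2:**
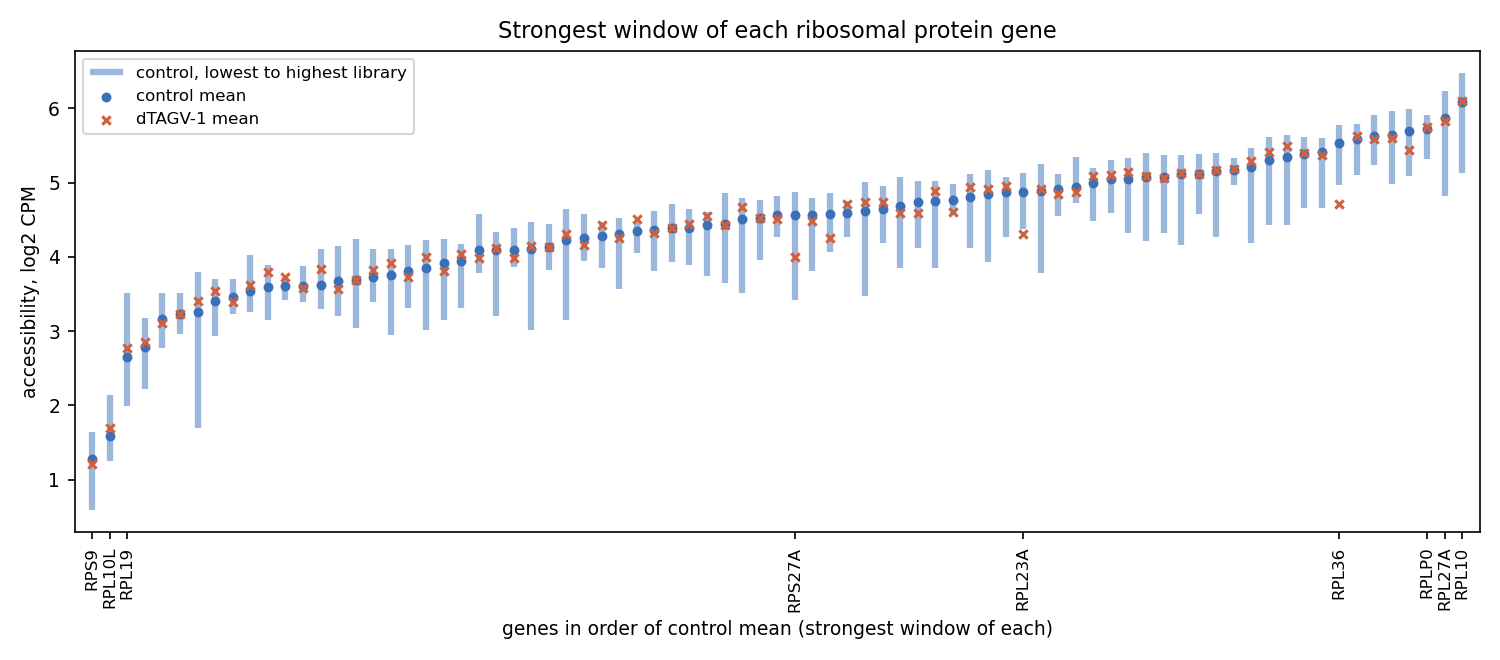
Accessibility in log2 CPM of the strongest window of each of 79 ribosomal protein genes, ordered by control mean; bars run from the lowest to the highest of 8 control libraries, points are control means and crosses dTAGV-1 means, and the 9 genes labelled are the 3 highest, the 3 lowest and the 3 with a called window. Most crosses lie on or near the points, from RPS9 at 1.28 to RPL10 at 6.09, and those of RPL36, RPS27A and RPL23A lie below.

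RPS18 could not be tested: both of its windows, at -429 and -35 bp from its start, held 0 counts in all 16 libraries, as did 2816 windows of the table, so no level is given. Among the genes with no counted window were RPL24, RPL22L1 and RPL3L. The authors' summit list nonetheless held a summit within 500 bp of a start for 83 of the 84 genes, RPS18 included, with a highest -log10 score of 349 at RPL24 and 428 at RPL22L1. RPL3L, a paralogue of striated muscle, had none.

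After 30 minutes of dTAGV-1 most ribosomal protein promoters did not pass the test in either direction, and 3 windows, at RPL36, RPS27A and RPL23A, were less accessible than in controls. Of 146 tested windows, 3 (2.05%) were lower after dTAGV-1 at an adjusted p of 0.05 (edgeR quasi-likelihood test over all 185040 tested windows), beside 395 lower windows in the whole table (0.213%). Most windows of the table have a lower level than the members. Among windows of other protein-coding starts in the quartile range of the members' level, 104 of 10141 were called lower (1.03%). No member was higher, beside 2 windows in the whole table (0.00108%). At an unadjusted p of 0.05, 7 member windows were lower, of RPL36, RPS27A (2 windows), RPL23A, RPL38, RPLP2 and RPL7 (1.55% of all tested windows were lower) and 0 were higher (1.3% of all). Among the 10141 windows of other protein-coding starts in the members' quartile range of level, 282 were lower and 16 higher at that threshold. Few higher windows are therefore usual at promoters of this level, and the 0 does not set the members apart. DESeq2 and voom also called 3 lower and 0 higher. The median log2 fold change was -0.01 over the members, 0.01 over all tested windows and 0.01 over windows of other protein-coding starts. The 143 windows that were not called lay between -0.42 and 0.30.

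The standard error of a member's log2 fold change had a median of 0.14 and ran from 0.13 to 0.31. In 145 of 146 windows the 95% interval excluded a fall to a log2 fold change of -1.0, with RPL36 as the exception, and in 137 it excluded a fall by 1.5 times. In 128 windows the whole interval lay within 0.5 of no change.

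**Figure D3:**
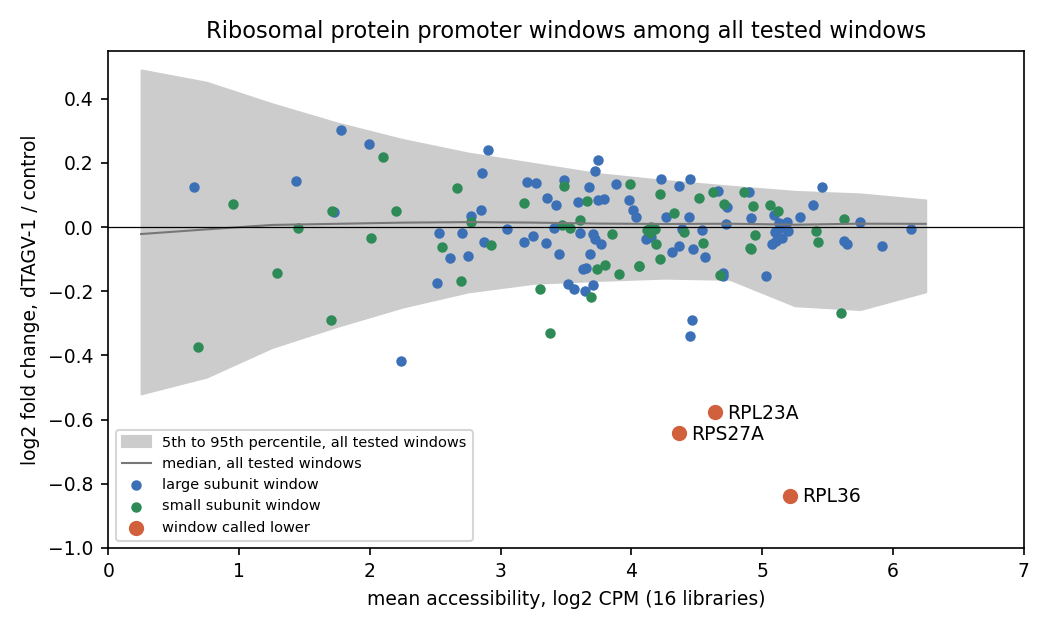
Log2 fold change of dTAGV-1 over control against mean log2 CPM over 16 libraries for 146 tested ribosomal protein windows, by subunit; the grey band spans the 5th to 95th percentile of all tested windows at that level. The 3 called windows, at -0.84 for RPL36, -0.64 for RPS27A and -0.58 for RPL23A, lie below the band.

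Averaged over the 146 windows, the level of a library was 3.85 ± 0.19 log2 CPM in controls and 3.84 ± 0.091 after dTAGV-1 (SD, n = 8 each). The controls ran from 3.41 over a median of 3.88 to 4.03, and the treated libraries from 3.74 over a median of 3.83 to 3.98, so the groups overlapped, and the lowest control was replicate 12. Relative to the windows of other protein-coding starts in the same library, the members stood 0.70 ± 0.078 log2 higher in controls and 0.67 ± 0.095 higher after dTAGV-1. They took 0.268% ± 0.022 of the counts in controls and 0.264% ± 0.012 after dTAGV-1.

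RPL36, a large subunit protein, had the window with the largest fall among the members. The window chr19:5680442-5680842 is centred at -9653 bp from the MANE start of RPL36 and at -385 bp from a minor RPL36 start, in an untranslated exon of HSD11B1L, between the start of that gene and the start of MICOS13 on the opposite strand. By its position it is therefore as much a window of those 2 genes as of RPL36. Its 8 controls ran from 4.97 over a median of 5.66 to 5.78 log2 CPM, and its dTAGV-1 libraries from 4.46 over a median of 4.71 to 5.05. The lowest control was replicate 12, and 6 of 8 treated libraries lay below all controls. Accessibility fell to 56.0% of control, with a log2 fold change of -0.84 (SE 0.14, 95% interval -1.13 to -0.55, edgeR adjusted p = 0.000541). The call held in all 22 alternative fits.

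Neighbouring RPL36 windows did not pass the test. The overlapping window at -23 bp from the same minor start went from 3.69 ± 0.19 to 3.69 ± 0.24 (log2 fold change -0.02, SE 0.13). At the MANE start of RPL36, chr19:5689981-5690381, the level was 4.34 ± 0.35 in controls and 4.32 ± 0.22 after dTAGV-1 (log2 fold change -0.06, SE 0.14, 95% interval -0.35 to 0.23). The difference between adjacent windows was tested directly, by limma on the per-library difference of log2 CPM over all 56985 pairs of tested windows up to 1000 bp apart, of which 112 were called (0.197%). Among the 83 pairs with a member, 1 was called: the RPL36 window against its neighbour towards the minor start (difference of log2 changes -0.82, SE 0.13, limma adjusted p = 0.00533). The pair of the same window with its neighbour on the other side, a window that is no member, was not called (difference 0.80, SE 0.17, limma adjusted p = 0.0657).

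RPS27A encodes a small subunit protein fused to ubiquitin and is 1 of the sources of ubiquitin in the cell. Its called window, chr2:55232096-55232496, is centred at -392 bp from the MANE start and at -136 bp from another RPS27A start, over the start of CLHC1 on the opposite strand. The controls ran from 3.42 over a median of 4.72 to 4.88 log2 CPM, and the dTAGV-1 libraries from 3.75 over a median of 4.01 to 4.33. Control replicate 12 alone lay below all treated libraries, at 3.42, while the other 7 controls lay between 4.60 and 4.88 and above every treated library. Accessibility fell to 64.0% of control (log2 fold change -0.64, SE 0.15, 95% interval -0.94 to -0.35, edgeR adjusted p = 0.0276). Without control replicate 12 the log2 fold change was -0.73 (edgeR adjusted p = 1.1e-05).

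The other RPS27A windows did not pass the test. The window at -36 bp from the MANE start, chr2:55232452-55232852, overlaps the called one and went from 3.52 ± 0.21 to 3.18 ± 0.22 (log2 fold change -0.33, SE 0.13, edgeR adjusted p = 1), with 6 of 8 treated libraries below all controls. The window at -967 bp from that start had a median of 2.03 in controls and 2.26 after dTAGV-1 (log2 fold change 0.22, SE 0.19). The difference between that upstream window and the called one was 0.80 (SE 0.20, limma adjusted p = 0.215) and was not called. Between the called window and the overlapping one at -36 bp the difference was -0.24 (SE 0.19), also not called. The fall in the called window is therefore not separated from the lower value at the MANE start.

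RPL23A, a large subunit protein at the exit tunnel where the signal recognition particle docks, had a single window. It spans chr17:28719476-28719876, intergenic sequence centred at -309 bp from the MANE start. Its controls ran from 4.38 over a median of 4.90 to 5.12 log2 CPM, and the dTAGV-1 libraries from 4.14 over a median of 4.27 to 4.53. The lowest control was replicate 12, and 6 of 8 treated libraries lay below all controls. Accessibility fell to 67.0% of control (log2 fold change -0.58, SE 0.13, 95% interval -0.84 to -0.31, edgeR adjusted p = 0.0343). Without control replicate 12 it was -0.63 (edgeR adjusted p = 0.000147).

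In the edgeR fit of all 16 libraries the calls of RPS27A and RPL23A lay near the threshold. DESeq2 gave adjusted p-values of 0.000872 for RPS27A and 2.4e-06 for RPL23A, and voom gave 0.00066 and 0.00111. Without the filter on low counts, edgeR called neither (adjusted p = 0.0678 and 0.0916). Leaving out any 1 of the 16 libraries gave edgeR adjusted p-values of 1.1e-05 to 0.167 for RPS27A, whose call was kept only without control replicate 12, dTAGV-1 replicate 12 or dTAGV-1 replicate 15. For RPL23A they ran from 0.000147 to 0.199, and the call was kept only without control replicate 12 or dTAGV-1 replicate 12. The log2 fold changes stayed negative in all of these fits, from -0.60 to -0.73 for RPS27A and from -0.54 to -0.63 for RPL23A. In the 146 windows no member had all 8 treated libraries below all controls, which 132 tested windows of the table had (0.0713%). At that share a set of 146 windows would mostly hold 0, so this count does not set the members apart. Control replicate 12 was the lowest control in 97 of the 146.

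**Figure D4:**
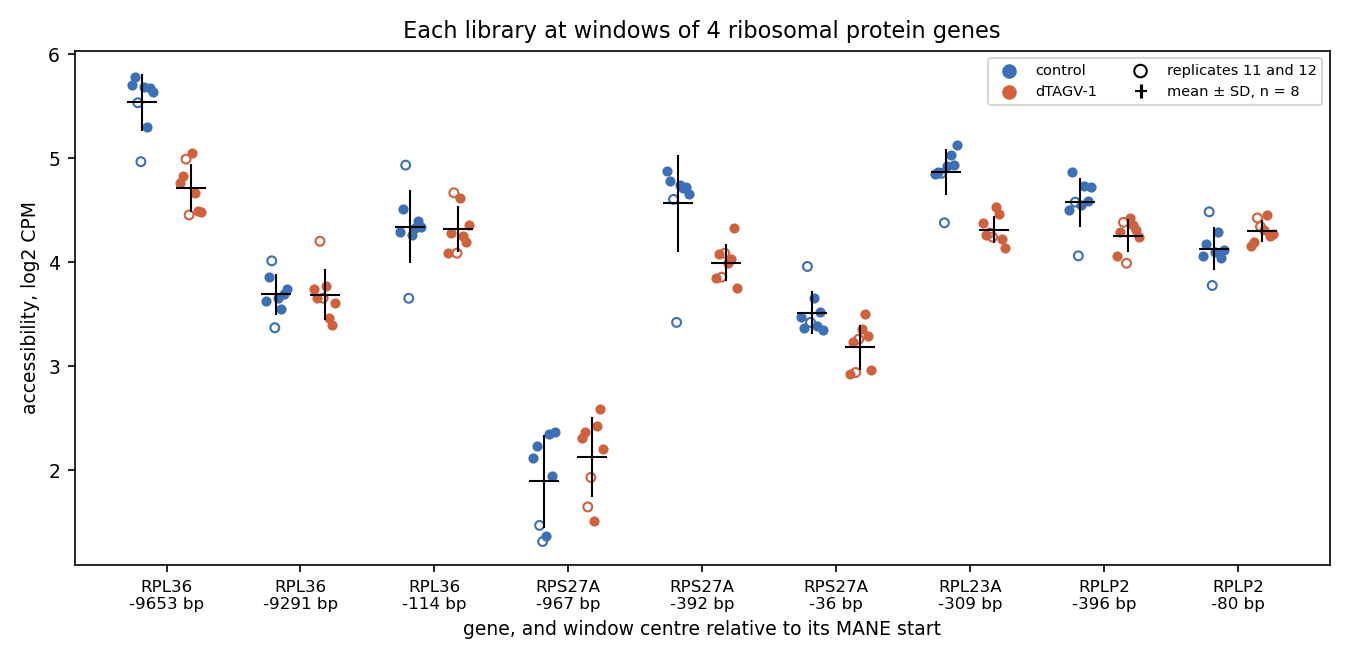
Accessibility in log2 CPM of each control and dTAGV-1 library at 9 windows of 4 genes, labelled by the distance of the window centre from the MANE start; black marks are mean ± SD (n = 8) and open circles replicates 11 and 12. The treated libraries sit lower at the RPL36 window at -9653 bp, the RPS27A window at -392 bp and the RPL23A window, and the groups overlap at the RPL36 MANE start.

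The windows with the left part of the ZNF143 motif were RPL36, RPS27A, RPL23A, RPL7, RPS26, RPL6, RPS3 and RPL15, and their log2 fold changes were -0.84, -0.64, -0.58, -0.29, -0.27, -0.20, -0.12 and -0.04. The 3 called windows are among them, and the part was searched because of those windows, so the count of 3 in 8 is a description only. The same part occurred in 498 tested windows of other protein-coding starts, of which 109 were called lower, with a median log2 fold change of -0.32. At RPS26, a small subunit protein at the mRNA exit, the window at -171 bp from the MANE start went from 5.70 ± 0.30 to 5.44 ± 0.21 (log2 fold change -0.27, SE 0.15, edgeR adjusted p = 1). It was called without replicates 11 and 12 of both groups (log2 fold change -0.27, edgeR adjusted p = 0.0449). RPL15, a core protein of the large subunit, held both parts in a window that it shares with NKIRAS1 and stood at 5.63 ± 0.20 in controls and 5.58 ± 0.26 after dTAGV-1 (log2 fold change -0.04, SE 0.14, 95% interval -0.33 to 0.25).

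Of the 7 windows with the right part, RPS27A alone was called, and all 7 had a negative log2 fold change. RPS27A, RPL7 and RPL15 also hold the left part, so no window with the right part alone was called. Windows of other protein-coding starts with the right part likewise include any that also hold the left part, and the parts were not separated. A negative value was also found in 56.8% of the 146 tested members. Among the 276 tested windows of other protein-coding starts with the right part, 68.5% had a negative value. RPLP2, an acidic stalk protein, shares a bidirectional promoter with PIDD1. Its window at -396 bp from the MANE start, chr11:809371-809771, went from 4.57 ± 0.24 to 4.26 ± 0.16 (log2 fold change -0.34, SE 0.13, edgeR adjusted p = 1), with 2 of 8 treated libraries below all controls. Its overlapping window at -80 bp went from 4.13 ± 0.20 to 4.30 ± 0.11 (log2 fold change 0.15, SE 0.13). The difference between these 2 windows was -0.49 (SE 0.12, limma adjusted p = 0.187). The upstream window was called without replicates 11 and 12 of both groups (log2 fold change -0.39, edgeR adjusted p = 0.0132).

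The remaining windows with the right part moved less. RPL7, a large subunit protein with a window at -303 bp, went from 4.57 ± 0.23 to 4.30 ± 0.18 (log2 fold change -0.29, SE 0.13, edgeR adjusted p = 1). RPL30, also of the large subunit, had a log2 fold change of -0.14 (SE 0.15), RPL7L1, a paralogue of RPL7, -0.13 (SE 0.14) and RPS23, a protein of the decoding centre, -0.02 (SE 0.14). None of these 4 passed the test after adjustment. In windows of other protein-coding starts with the right part, 27 of 276 were called lower and the median was -0.11.

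**Figure D5:**
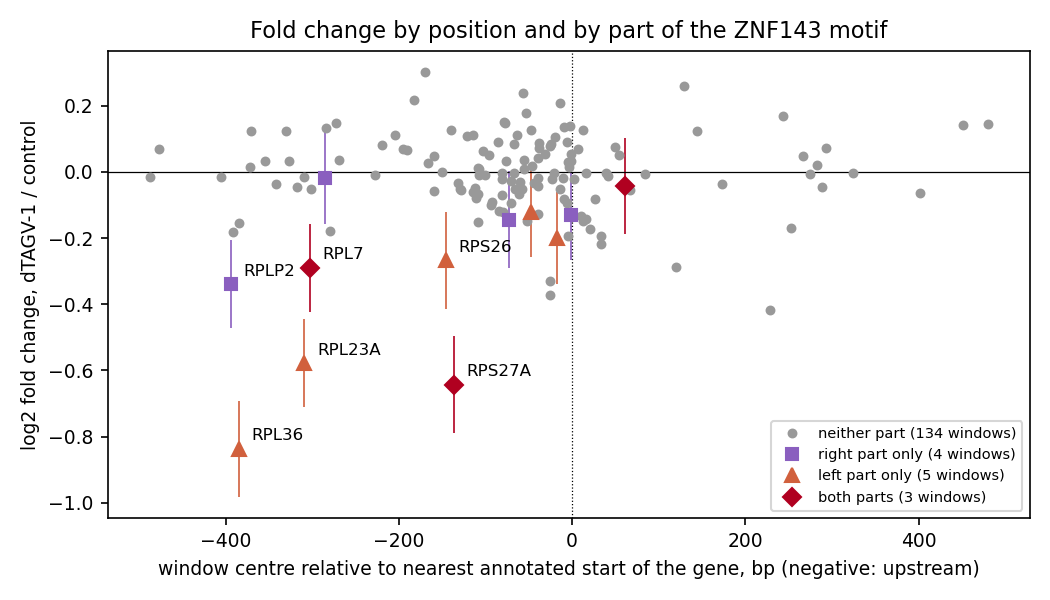
Log2 fold change of 146 tested ribosomal protein windows against the distance of the window centre from the nearest annotated start of the gene in bp (negative is upstream); triangles hold the left part of the ZNF143 motif, squares the right part, diamonds both, and bars are standard errors. The 12 windows with either part all lie at or below 0, from -0.02 for RPS23 to -0.84 for RPL36, beside 83 of all 146 windows (56.8%) below 0. The left part was added after the changed windows had been seen, so this is a description only.

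By subunit and role, the counts below are read beside the 0.213% of all tested windows called lower and the 0.627% of windows of other protein-coding starts called in either direction. In windows of other protein-coding starts in the quartile range of the members' level, 1.03% were called lower. Of 90 tested large subunit windows 2 were called lower (2.22%), with a median log2 fold change of -0.01, and of 56 small subunit windows 1 was (1.79%), with a median of -0.01. The P stalk, RPLP0, RPLP1 and RPLP2, had 6 windows, 0 called, and a median of 0.02. RPL5 and RPL11, which with 5S rRNA bind MDM2 when ribosome assembly fails, had 6 windows, 0 called, and a median of 0.01. The paralogues, such as RPL26L1, RPL39L and RPS27L, had 10 tested windows, 0 called, and a median of 0.01. Genes mutated in Diamond-Blackfan anaemia, an inherited red cell aplasia, had 35 tested windows, 0 called, and a median of -0.02. At the share called over all windows, lists of this size would mostly hold 0 called windows, so these counts of 0 set the lists apart from nothing.

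By position, 26 tested windows were centred over 200 bp upstream of a start, of which 2 were called (7.69%). The shares here are read beside 0.213% of all tested windows. They are also read beside 1.03% of windows of other protein-coding starts in the quartile range of the members' level. Within 200 bp 1 of 108 was called (0.926%), and over 200 bp downstream 0 of 12. Of the 37 tested windows that also lie at another protein-coding start 2 were called (5.41%), and of the 109 that do not, 1 (0.917%). Restricted to the 117 tested windows at MANE starts, 2 were called (1.71%). With 3 calls in all, differences between these shares were not tested. RPL38, a large subunit protein linked to translation of Hox mRNAs, had the lowest fold change among windows that were not called. Its window at 255 bp downstream of the MANE start went from 2.43 ± 0.19 to 1.99 ± 0.25 (log2 fold change -0.42, SE 0.16, edgeR adjusted p = 1), and its window at -135 bp from 3.61 ± 0.17 to 3.59 ± 0.28 (-0.02, SE 0.14).

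In the higher direction, the 5 windows with the smallest p-values were not called. RPL37A, a zinc-binding protein of the large subunit, went from 3.62 ± 0.25 to 3.84 ± 0.11 (log2 fold change 0.21, SE 0.13), and RPL21 from 3.60 ± 0.24 to 3.80 ± 0.12 (0.18, SE 0.13). The RPL7 window at -2213 bp from the MANE start, at the start of RDH10, gave 0.24 (SE 0.14), the RPL19 window 353 bp downstream of its MANE start 0.26 (SE 0.22) and RPL10L 0.30 (SE 0.22). At RPL10L, dTAGV-1 replicate 12 stood at -0.34 log2 CPM and the other treated libraries between 1.46 and 2.39.

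Counts by other sequence elements are given for completeness, since at 0.213% called over all windows 0 calls would be usual in groups of this size. Windows with the M8 element, among them RPS6, RPS19, RPL7A and RPL12, had 0 of 17 called and log2 fold changes with a median of -0.01. Windows with the ETS element had 0 of 29 called, those with the NFY element 0 of 36 and those with the SP and KLF element 0 of 11.

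Genes of related work were read in the same fit, beside 0.213% of all tested windows called lower. In windows of other protein-coding starts, 0.627% were called in either direction. At these shares, counts of 0 or 1 in lists of this size do not set the lists apart. Mitochondrial ribosomal protein starts had 0 of 138 windows called, proteasome starts 1 of 60 lower, and translation genes with a terminal oligopyrimidine tract 0 of 40. Among genes of ribosome biogenesis 1 of 63 windows was called lower: that of POLR1A, the largest subunit of RNA polymerase I, chr2:86105410-86105810, which went from 4.02 ± 0.42 to 3.10 ± 0.27 log2 CPM (log2 fold change -0.996, SE 0.15, edgeR adjusted p = 3.2e-05).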

How the data were processed

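Raw counts for each window and library (replicates 9 to 16, 16 libraries) were deposited by the authors without normalization, as the file headers and the values show; 0 columns of samples were left unused. Its -log10 q per window, and the -log10 score of the deposited summit list, are the authors' own and were used only to describe. The submitters' processing notes name hg38, cutadapt 1.8.1, Bowtie2 2.4.4 and SAMtools 1.9. The peak caller, the counting tool and any shift of reads for Tn5 are not given in the sources used here.

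For dTAGV-1 against control the quasi-likelihood test of edgeR 4.0.16 was run under R 4.3.3 with filterByExpr, TMM scaling and Benjamini-Hochberg adjustment over all tested windows at 0.05. Adjacent windows were compared with limma 3.58.1, an analysis added after the data were seen. DESeq2 1.42.0 and voom were alternatives. The scripts were tested on simulated data. In none of 56 same-group pairs did counts agree within sampling noise (chi-square 1.64 to 5.00 times its degrees of freedom), so none was treated as 1 library deposited more than once; this does not show separate cultures. Members and lists were chosen with earlier results of these data known. Named windows were those called, the 5 lower and 5 higher with the smallest p, those with the right part of the ZNF143 motif, and the 3 genes highest and 3 lowest in control level, and called windows of the lists; RPS26, RPL6, RPS3, RPL15 (left part) and RPS18 were singled out after their values were seen. A few items are not reported here.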

Additional observations from a re-analysis of the deposited data

Results flagged for a closer look

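In 12 of 50 groups of 8 values, 1 library stood well apart from the remaining 7, where chance gives about 1 in 20 for a single group. It was control replicate 12 in 11 of them. The groups come from the same 16 libraries and are not independent, so 1 unusual library can recur and the 12 are not tested against that share. In log2 CPM, control replicate 12 stood at 5.13 at the RPL10 window (others 5.97 to 6.48), 4.82 at RPL27A (5.65 to 6.23), 4.38 at RPL23A (4.85 to 5.12), 4.06 at RPL7 at -303 bp (4.52 to 4.80) and 4.06 at RPLP2 at -394 bp (4.50 to 4.87). It stood at 3.42 at RPS27A (4.60 to 4.88), 3.20 at RPS23 (4.05 to 4.33) and 3.02 at RPL7L1 (3.55 to 3.97). Its mean over the member windows was 3.41 (3.86 to 4.03), their share of its counts 0.219% (0.266% to 0.297%), and the windows in the top decile of mean level held 32.0% of its total (45.9% to 49.5%). The remaining case was dTAGV-1 replicate 12 at the RPL10L window, at -0.34 log2 CPM (1.46 to 2.39). The part of these libraries in the results was not tested beyond the fits without them.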

How the results depend on the processing

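Of the fits over all windows, those without any filter on low counts gave 1 lower member window (RPL36) against 3, and those without replicates 11 and 12 of both groups gave 5, adding RPLP2 and RPS26. Members centred within 250 bp of a start gave 1. Leaving out each library in turn gave 1 to 3. The count over the whole table was 397, and it was 781 without replicates 11 and 12 and 321 to 632 with each library left out, the highest being without control replicate 12. With the replicate number as a block the whole table gave 753 and the members 4, adding RPLP2 (edgeR adjusted p = 0.0448). The labels do not say that a number marks a shared batch. Deviations of same-numbered libraries correlated at 0.028 to 0.34, above 0.1 in 5 of 8 pairs, and 5 of 8 correlated best with their own number, a hint of pairing from the data and not from the design. No member was called higher under any alternative, and the members' median log2 fold change lay between -0.06 and 0.02. No called result reversed its direction. Searching the whole window raised the members with the YY1 element from 7 to 12 and with the E-box from 9 to 16. Without replicates 11 and 12, 154 adjacent pairs were called and 1 held a member. Depth limits windows of low count, such as RPS9. The cause of these shifts was not tested.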
